A study of Homo sapiens with 4 samples.

Results

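Septins are GTP-binding proteins that join end to end into rods, filaments and rings beneath the plasma membrane and along actin and microtubules. The human family is sorted by sequence into 4 groups, named after SEPTIN2, SEPTIN3, SEPTIN6 and SEPTIN7, and a rod takes a subunit from each of several groups, with members of 1 group able to stand in for each other. Septins form a collar at the cleavage furrow in dividing cells, and in neurons they mark branch points of axons and dendrites and sit near sites of vesicle release. The 10 genes described here are SEPTIN2 to SEPTIN11, out of 64252 rows in the count table. The rows were chosen by symbol and, where a symbol had several rows, by the highest mean count over the 4 libraries; each of the 10 had 1 row. That mean count is a measured value, and the family was put forward with results of these data known, so the levels are given as a description and the number of septins called is set beside the share of all genes called, with nothing read from it.

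RNA sequencing was done on SK-N-BE(2), a human neuroblastoma cell line with amplified MYCN, after transfection with a control hairpin (shControl, 2 libraries) or a hairpin against CDK5RAP3 (shCDK5RAP3, 2 libraries), a protein that works with the ligase for the small modifier UFM1 at the endoplasmic reticulum. Both groups carry a hairpin. The number of hairpins, their sequences, the time after transfection and whether replicates were separate cultures could not be read from the labels (not given in the sources used here), so p-values measure only the spread between these libraries. Total counts ran from 28653689 to 30138393 per library. The counts of CDK5RAP3 were 2529 and 2866 under shControl and 1669 and 1689 under shCDK5RAP3, which is 62.1% of the control level after scaling (log2 change -0.69 ± 0.08 SE, edgeR adjusted p = 0.000163), a partial reduction.

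SEPTIN2 and SEPTIN7 are the members whose longest annotated 3′ untranslated region (UTR) holds either of a pair of 7-base words, AACACCT and ACACCTA. They are shown because an earlier search of the fold changes of this same experiment picked out those words, so a match carries no independent weight. In SEPTIN2 the words overlap by all but 1 base and make the run AACACCTA, at bases 524 to 531 of a UTR of 2090 bases. In SEPTIN7 the word AACACCT stands at bases 1766 to 1772 of a UTR of 2812 bases. Both stretches are printed 5′ to 3′ on the transcript strand from GENCODE 29 transcripts (GRCh38), at chr2:241352451-241352478 and chr7:35906049-35906075, both on the plus strand, with the words in capitals.
SEPTIN2: gtttgtacacAACACCTAaaaccagttt
SEPTIN7: agattgggttAACACCTctagccaaaa
The longest 3′ UTRs of 13598 tested protein-coding genes were searched on the transcript strand alone, and their median length was 1375 bases. Of these UTRs 15.3% held either 7-base word, 10.9% held AACACCT, 7.51% held ACACCTA and 2.19% held the 8-base run. The other 8 septins, with UTRs from 920 bases (SEPTIN5) to 4102 bases (SEPTIN11), held neither word, which says only that these letters are not in those UTRs. A match is a description of the sequence only.

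Of the 10 septins, all of which passed the filter on low counts, 6 fell, 1 rose and 3 did not pass. SEPTIN2 fell to 23.8% of its control level, SEPTIN8 fell to 41.2% and SEPTIN4 to 41.1%, and SEPTIN6, SEPTIN7 and SEPTIN9 fell by small amounts, whereas SEPTIN10 rose. SEPTIN3, SEPTIN5 and SEPTIN11 did not pass. The test was edgeR's quasi-likelihood test over 18775 genes at a Benjamini-Hochberg adjusted p of 0.05. By it 41.5% of all tested genes were called; 21.8% of tested genes were lower and 19.7% were higher in the shCDK5RAP3 libraries. Without shCDK5RAP3 replicate 1 the septins called lower numbered 3 and all genes called 4836, and without shCDK5RAP3 replicate 2 they numbered 2 and 3752, against 7792 with all libraries; no septin was then called higher. The median log2 fold change was -0.19 over the septins and -0.003 over all tested genes. A fall of at least 2-fold was seen for 3 septins, beside 7.29% of tested genes called with such a fall. Levels are CPM, the count of a gene relative to the library total, scaled by the trimmed mean of M values, and RNA was taken from whole cultures, so fewer cells of a type and less RNA per cell cannot be told apart.

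**Figure D1:**
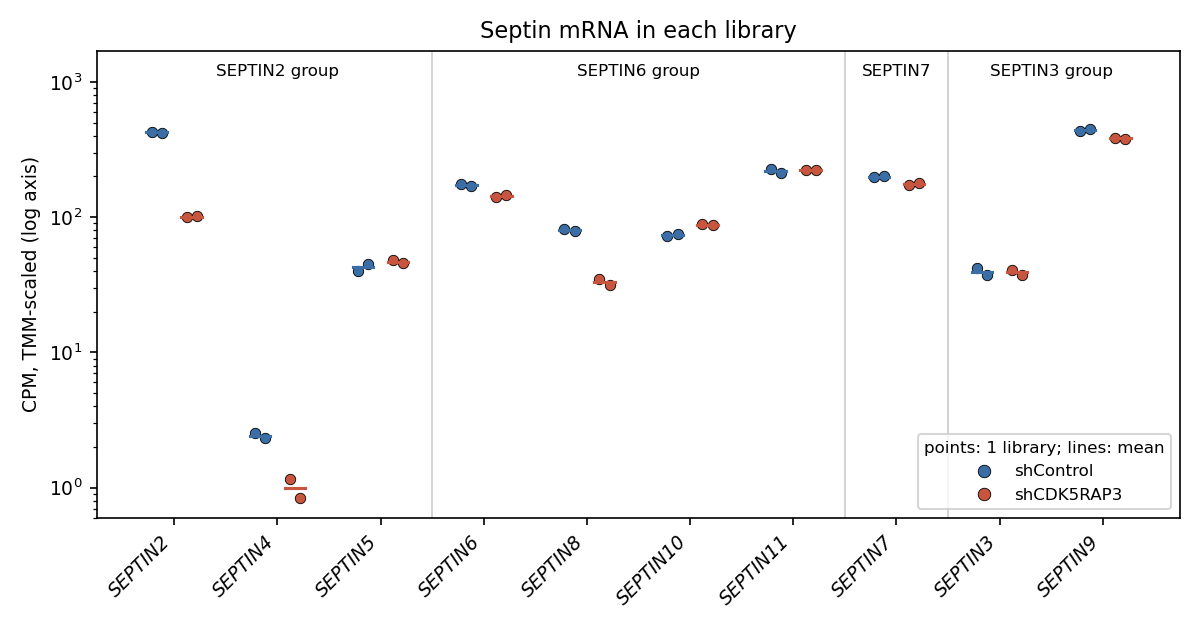
CPM of each septin (vertical log axis) in the 2 shControl and the 2 shCDK5RAP3 libraries, ordered by sequence group; points are single libraries and lines are group means. SEPTIN2, SEPTIN4 and SEPTIN8 show the widest gaps, with SEPTIN2 at 429 and 419 CPM against 101 and 102 CPM.

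The SEPTIN2 group holds SEPTIN2, which takes part in cytokinesis and in the diffusion barrier at the base of cilia. SEPTIN2 (ENSG00000168385, GRCh38 chromosome 2, 241315100 to 241354027, plus strand) was counted 12412 and 12186 times under shControl and 2873 and 3004 times under shCDK5RAP3, or 429, 419, 101 and 102 CPM. Both control libraries lay more than 4-fold above both shCDK5RAP3 libraries, and replicates of a group lay close together. The mean went from 424 ± 6.98 to 101 ± 0.646 CPM (SD, n = 2 each), a log2 change of -2.07 ± 0.06 SE (edgeR adjusted p = 4.32e-07). The fall was the 285th largest of the 18775 tested genes. Of the 575 genes with a mean abundance at least that of SEPTIN2, 4 fell as far, SEPTIN2 included. Its log2 change stayed between -2.10 and -2.04 over 14 alternative settings, with the highest adjusted p at 0.00869.

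The 5′ end of SEPTIN2 overlaps that of HDLBP, which encodes an RNA-binding protein and lies on the other strand, and 232 of the 7378 merged exon bases of SEPTIN2 are shared with it. HDLBP had 20216 and 18339 counts against 19918 and 19855, a log2 change of 0.04 ± 0.06 SE that did not pass (edgeR adjusted p = 0.641). ENSG00000223374, an antisense gene, shares 66 exon bases with SEPTIN2. It held 14 and 12 counts against 23 and 32 and did not pass (log2 change 1.07, edgeR adjusted p = 0.0804). The lone pseudogene row of SEPTIN2, SEPTIN2P1, held 3, 3, 1 and 3 counts. Of the 50-base stretches of the longest coding SEPTIN2 transcript, 0.931% also occur in a transcript of another gene.

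**Figure D2:**
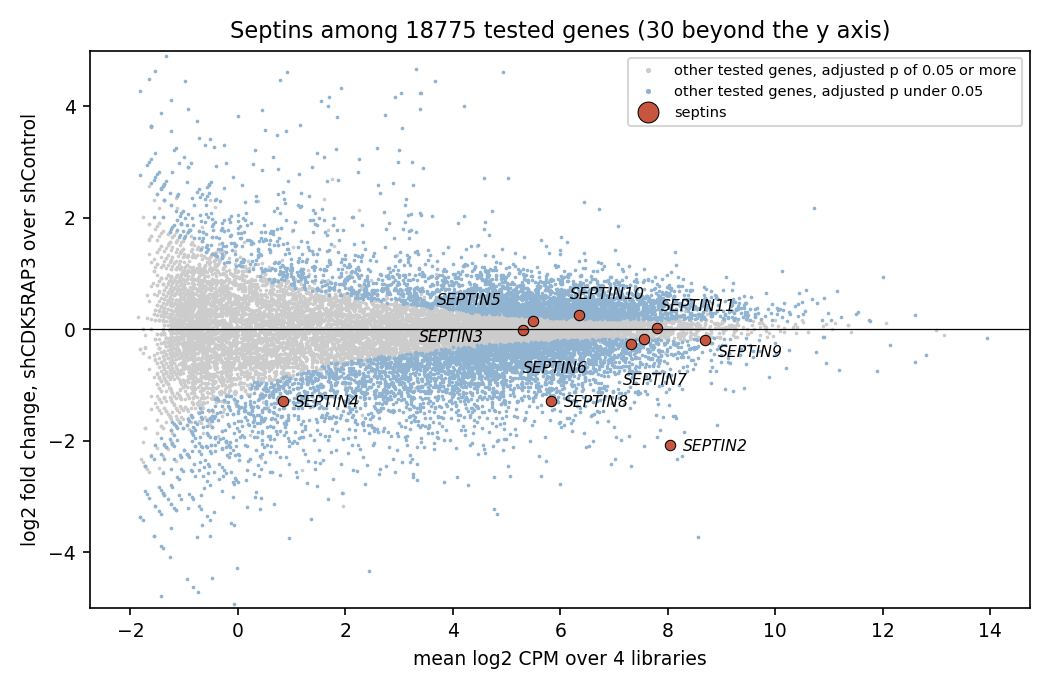
Log2 fold change of shCDK5RAP3 over shControl (vertical axis) against mean log2 CPM over the 4 libraries (horizontal axis) for 18775 tested genes, with the septins as large labelled points; 30 genes lie beyond the vertical axis. SEPTIN2, at a log2 change of -2.07, stands below almost all genes of its abundance, while 7 of the 10 septins lie near 0.

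SEPTIN4 and SEPTIN5 belong to the same group. SEPTIN4 encodes, besides a filament subunit, the short pro-apoptotic form ARTS, and counts per gene do not separate the forms. SEPTIN4 (ENSG00000108387, chromosome 17, 58520250 to 58540818) was the scarcest of the 10 septins by count, with 73 and 68 counts under shControl and 33 and 25 under shCDK5RAP3. The groups did not overlap, and the mean fell from 2.43 ± 0.13 to 1.00 ± 0.220 CPM (SD, n = 2 each), a log2 change of -1.28 ± 0.30 SE (edgeR adjusted p = 0.00835). Leaving out shCDK5RAP3 replicate 2 ended this call (edgeR adjusted p = 0.0738 at a log2 change of -1.07). An antisense gene, SEPTIN4-AS1, shares 242 exon bases with it and held 19, 9, 1 and 6 counts, and whether counting used the strand was not stated.

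SEPTIN5, which binds the vesicle-fusion protein syntaxin and is abundant in neurons, was slightly higher in the shCDK5RAP3 libraries and did not pass the test. SEPTIN5 (ENSG00000184702, chromosome 22, 19714464 to 19724224) stood at 39.9 and 45.2 CPM under shControl and at 48.1 and 45.8 CPM under shCDK5RAP3. The groups did not overlap, but the gap was within the spread between libraries (log2 change 0.14, 95% interval -0.06 to 0.34, edgeR adjusted p = 0.237). SEPTIN5 is uncertain because it runs into the platelet gene GP1BB. Of its 50-base stretches, 97.8% also occur in an annotated transcript that reads through both genes, whose row was not analysed here, and 14.9% occur in GP1BB, which had 144 and 127 counts against 126 and 127. SEPTIN1, the remaining gene of the group, had 41 and 51 counts against 32 and 35 (log2 change -0.46, edgeR adjusted p = 0.276).

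In the SEPTIN6 group the 4 members went different ways. SEPTIN8, a subunit found at presynaptic vesicles in neurons, fell, SEPTIN6 fell slightly, SEPTIN10 rose slightly and SEPTIN11 did not pass. SEPTIN8 (ENSG00000164402, chromosome 5, 132750817 to 132807241) was counted 2371 and 2293 times under shControl and 995 and 931 times under shCDK5RAP3. Both control libraries, at 82.0 and 78.9 CPM, lay above 34.9 and 31.5 CPM, with no overlap. The log2 change was -1.28 ± 0.08 SE (edgeR adjusted p = 7.39e-06) and stayed between -1.34 and -1.21 over 14 alternative settings, none of which ended the call. CCNI2, on the other strand with 1150 shared exon bases, held 8, 0, 2 and 6 counts.

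SEPTIN6 (ENSG00000125354, chromosome X, 119615724 to 119693370), the founding subunit of the group, went from 175 and 171 CPM to 142 and 146 CPM. The groups did not overlap (log2 change -0.27 ± 0.06 SE, edgeR adjusted p = 0.00703). SEPTIN10 (ENSG00000186522, chromosome 2, 109542982 to 109614206) went the other way, from 72.8 and 75.4 CPM to 89.5 and 87.0 CPM, again with no overlap (log2 change 0.25 ± 0.07 SE, edgeR adjusted p = 0.013). Leaving out shCDK5RAP3 replicate 1 ended both calls, with an edgeR adjusted p of 0.107 for SEPTIN6 and 0.117 for SEPTIN10, as did leaving out replicate 2 of that group (0.0769 and 0.0973), while the fold changes barely moved. Of the SEPTIN10 50-base stretches 8.81% occur in its pseudogene SEPTIN10P1, which held 6, 7, 13 and 5 counts. SEPTIN11 (ENSG00000138758, chromosome 4, 76949703 to 77040384), which shapes dendrites in neurons, had 229 and 212 CPM against 224 and 225 CPM, so the shCDK5RAP3 libraries lay inside the control range (log2 change 0.03, 95% interval -0.11 to 0.17, edgeR adjusted p = 0.741). SEPTIN14, a testis gene of this group, had 0 counts in all 4 libraries, which allows up to 3 counts or 0.105 CPM in a library, counting error only.

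SEPTIN7 is the only gene of its group and the subunit for which the other groups have no substitute. SEPTIN7 (ENSG00000122545, chromosome 7, 35800932 to 35907105) had 5703 and 5819 counts against 4926 and 5312, or 197 and 200 CPM against 173 and 180 CPM. The groups did not overlap, and the log2 change was -0.17 ± 0.06 SE (edgeR adjusted p = 0.046). This call sat at the threshold. It was lost without each of the 4 libraries in turn (edgeR adjusted p = 0.0563 without shControl replicate 1, 0.0927 without shControl replicate 2, 0.309 without shCDK5RAP3 replicate 1 and 0.152 without shCDK5RAP3 replicate 2), with DESeq2 (adjusted p = 0.0553) and with relative log expression or upper-quartile factors (0.0564 and 0.0928), as well as with no filter (0.0855).

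SEPTIN7 also has many pseudogene copies, and of 15 rows 5 were tested, of which 2 rose and 3 did not pass, beside 19.7% of all tested genes called higher. SEPTIN7P2 went from 309 and 324 to 536 and 494 counts (log2 change 0.70, edgeR adjusted p = 0.00225) and SEPTIN7P13 from 98 and 62 to 169 and 122 counts (log2 change 0.86, edgeR adjusted p = 0.0366). SEPTIN7P14, with 395 and 348 counts against 353 and 357, did not pass (log2 change -0.07), nor did SEPTIN7P3 (-1.0, with 11 and 23 counts against 0 and 17) or SEPTIN7P6 (-0.90, with 14 and 14 counts against 3 and 12). Together the 15 pseudogene rows held 14.6% and 13.4% as many counts as SEPTIN7 under shControl and 21.8% and 19.1% under shCDK5RAP3. Of the 50-base stretches of SEPTIN7, 7.29% occur in other genes, so SEPTIN7 and these copies are uncertain where reads could be split between them; how such reads were treated was not stated, and whether they moved the SEPTIN7 value was not tested.

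The SEPTIN3 group holds the neuronal SEPTIN3 and the widely expressed SEPTIN9, which extends the rods to longer ones and binds microtubules. SEPTIN9 (ENSG00000184640, chromosome 17, 77280569 to 77500596) was the septin with the highest CPM in both groups, at 432 and 452 CPM against 388 and 381 CPM. The groups did not overlap (log2 change -0.20 ± 0.06 SE, edgeR adjusted p = 0.0212). The call was lost without shControl replicate 2 (0.0613), shCDK5RAP3 replicate 1 (0.146) or shCDK5RAP3 replicate 2 (0.171), and with no filter (0.0568). An antisense gene, ENSG00000266998, shares 864 exon bases with SEPTIN9 and held 29, 48, 31 and 44 counts. SEPTIN3 (ENSG00000100167, chromosome 22, 41969475 to 41998221) had 41.9 and 37.1 CPM against 40.6 and 37.6 CPM, values that interleave (log2 change -0.01, 95% interval -0.23 to 0.20, edgeR adjusted p = 0.915). SEPTIN12, a sperm gene of this group, had 0 counts in 3 libraries and 4 in shCDK5RAP3 replicate 1.

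**Figure D3:**
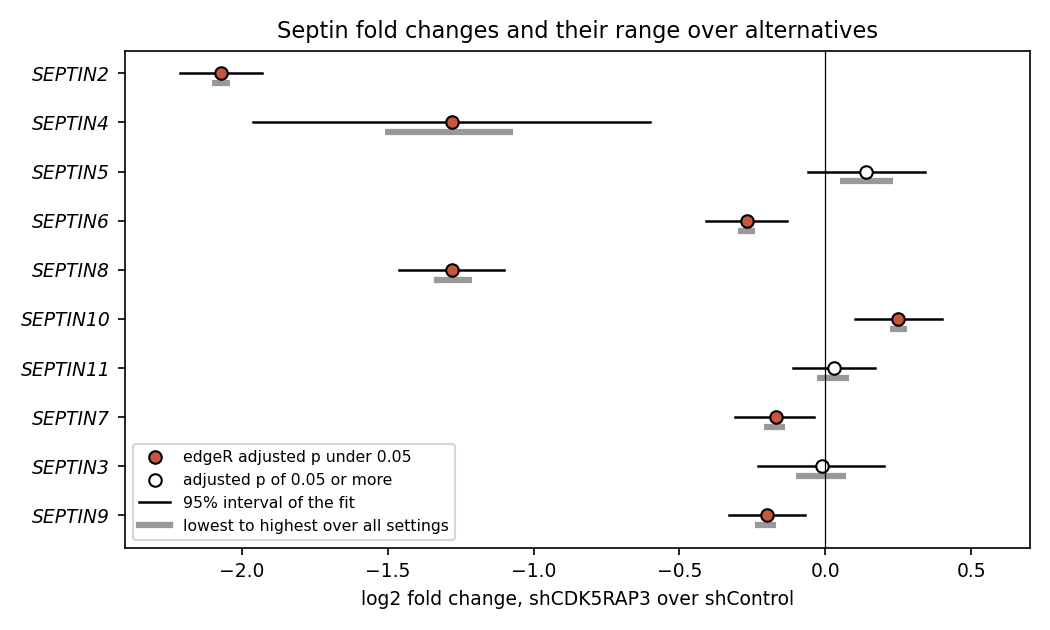
Log2 fold change of each septin (horizontal axis; shCDK5RAP3 over shControl), with filled points for an edgeR adjusted p under 0.05, black lines for the 95% interval of the fit and grey bars for the lowest to highest value over all settings. The grey bars of SEPTIN2 (-2.10 to -2.04), SEPTIN8 (-1.34 to -1.21) and SEPTIN4 (-1.51 to -1.07) lie below those of the other septins, and those of SEPTIN3 and SEPTIN11 cross 0.

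Over the family, the groups of libraries did not overlap for 8 septins, 6 lower and 2 higher in the shCDK5RAP3 libraries, beside 71.4% of all tested genes without overlap (36.4% lower and 35.0% higher). The summed septin level was 1700 ± 5.37 CPM in the shControl libraries and 1240 ± 2.99 CPM in the shCDK5RAP3 libraries (SD, n = 2 each), 73.0% of control. The net difference was -458 CPM, of which SEPTIN2 alone made up -323 CPM, or 70.5%. Without SEPTIN2 the other 9 septins summed to 89.4% of control.

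To compare levels between septins, CPM was divided by the length in kilobases of the longest annotated coding transcript. The order depends on this choice of length. By mean CPM with no division, SEPTIN9 (442) stood above SEPTIN2 (424) and SEPTIN11 (220) above SEPTIN7 (199) in the shControl libraries. On this scale SEPTIN2 was the highest septin in the shControl libraries, at 115 ± 1.89 CPM per kilobase, followed by SEPTIN9 at 99.2 ± 3.16, SEPTIN7 at 45.2 ± 0.486, SEPTIN11 at 39.4 ± 2.12 and SEPTIN6 at 36.8 ± 0.569 (SD, n = 2 each). SEPTIN10 (24.0), SEPTIN5 (19.0), SEPTIN8 (18.3), SEPTIN3 (8.50) and SEPTIN4 (1.28 CPM per kilobase) followed. SEPTIN5, at 17.8 and 20.2, and SEPTIN8, at 18.7 and 18.0 CPM per kilobase, overlapped and had no order in the control libraries. In the shCDK5RAP3 libraries SEPTIN9 led at 86.3 ± 0.969 CPM per kilobase, SEPTIN11 (40.2) and SEPTIN7 (40.0) overlapped, SEPTIN6 (30.6) and SEPTIN10 (28.5) came next, and SEPTIN2, at 27.3 ± 0.174 CPM per kilobase, stood in the sixth place. SEPTIN5 (20.9), SEPTIN3 (8.41), SEPTIN8 (7.55) and SEPTIN4 (0.525 CPM per kilobase) closed the order.

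**Figure D4:**
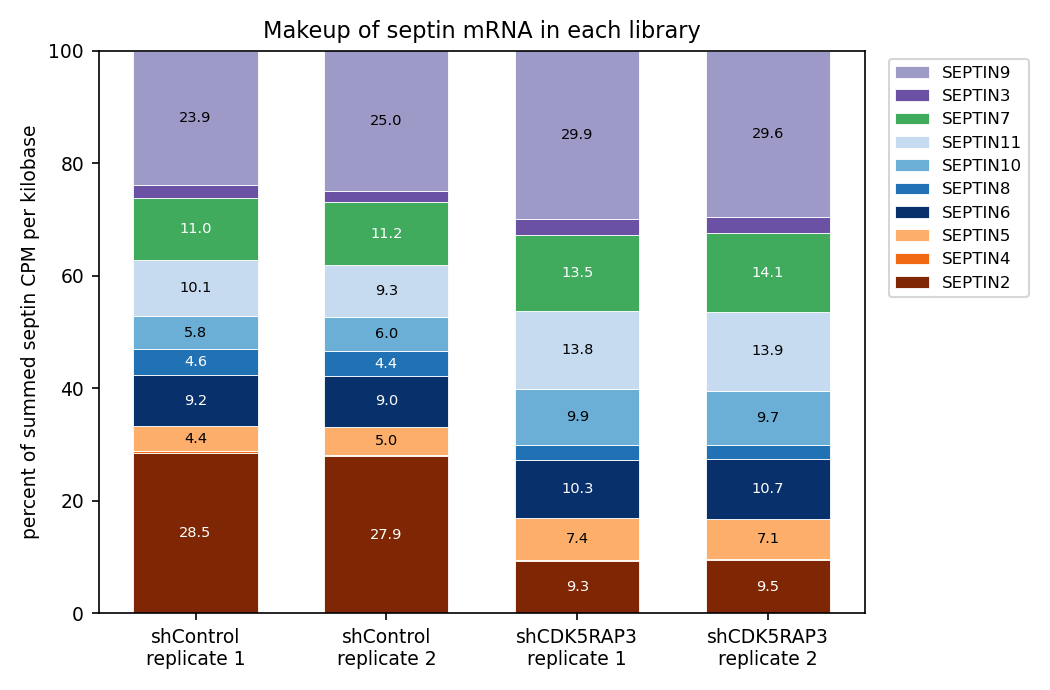
Percent of the summed septin CPM per kilobase (vertical axis) taken by each septin in each of the 4 libraries; numbers are printed for shares above 4 percent. SEPTIN2 takes 28.5% and 27.9% under shControl and 9.33% and 9.48% under shCDK5RAP3, and replicates of a group look alike.

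The mRNA makeup of the family differed between the groups of libraries by more than between replicates. The SEPTIN2 group supplied 33.3% and 33.2% of septin mRNA per kilobase under shControl and 16.9% and 16.7% under shCDK5RAP3. The SEPTIN6 group went from 29.2 ± 0.641% to 36.8 ± 0.047%, the SEPTIN3 group from 26.5 ± 0.594% to 32.6 ± 0.349% and SEPTIN7 from 11.1 ± 0.118% to 13.8 ± 0.449% (SD, n = 2 each). These are shares of a smaller sum, and the levels themselves were lower in the shCDK5RAP3 libraries. In mean CPM per kilobase the SEPTIN6 group went from 118 to 107, the SEPTIN3 group from 108 to 94.7 and SEPTIN7 from 45.2 to 40.0. Within the SEPTIN2 group SEPTIN5 made up 13.2% and 15.0% under shControl and 43.5% and 42.3% under shCDK5RAP3, with SEPTIN2 at 85.8% and 84.1% against 55.2% and 56.8%. With no division by length the mean share of SEPTIN5 in the group was 9.08% under shControl and 31.5% under shCDK5RAP3. The level of SEPTIN5 itself did not pass the test, while that of SEPTIN2 fell. Within the SEPTIN6 group the share of SEPTIN8 went from 15.4 ± 0.0817% to 7.06 ± 0.487% and that of SEPTIN10 from 20.2 ± 0.944% to 26.7 ± 0.455% (SD, n = 2 each). With 2 libraries against 2, an exact two-sided permutation test cannot go below p = 0.333, so these shares are given without a test.

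Set against SEPTIN7, the SEPTIN2 group was lower in the shCDK5RAP3 libraries, and the ratios of the SEPTIN6 and SEPTIN3 groups lay within the spread between libraries. The ratio of the SEPTIN6 group to SEPTIN7 was 2.68 and 2.56 under shControl and 2.73 and 2.61 under shCDK5RAP3, and that of the SEPTIN3 group was 2.36 and 2.40 against 2.44 and 2.30, so the groups of libraries overlapped for both. With merged exon lengths the mean ratio of the SEPTIN6 group was 4.31 under shControl and 4.44 under shCDK5RAP3. The ratio of the SEPTIN2 group to SEPTIN7 was 3.01 and 2.96 against 1.26 and 1.18, with no overlap. Its value depends on the lengths used, and it was lower in the shCDK5RAP3 libraries under each: from 2.36 to 0.847 with no division by length, from 3.68 to 1.49 with merged exon lengths and from 2.62 to 1.01 with pseudogene counts added. These ratios are of mRNA and say nothing of protein.

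**Figure D5:**
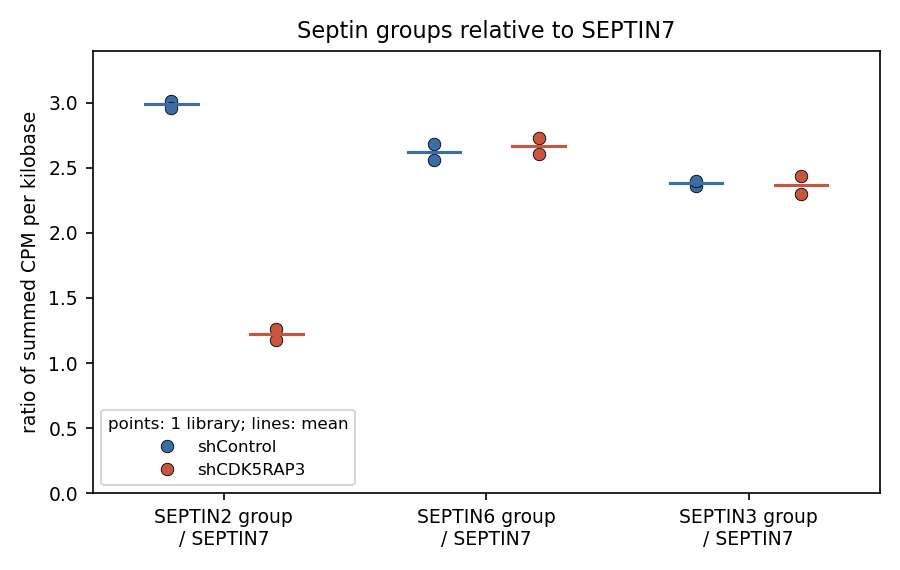
Ratio of the summed CPM per kilobase of each septin group to that of SEPTIN7 (vertical axis, from 0) in each library; points are libraries and lines are group means. The SEPTIN2 group drops from a mean of 2.99 to 1.22, while the points of the SEPTIN6 and SEPTIN3 groups overlap between shControl and shCDK5RAP3.

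Septins bind the small GTPase CDC42 through adaptor proteins, the CDC42 effectors CDC42EP1 to CDC42EP5, also called BORG proteins, which bundle septin filaments. Of the 5 genes of this list of 6 that were tested, 3 fell and 2 did not pass, beside the 21.8% of all genes called lower. CDC42EP4 went from 76.9 and 76.8 CPM to 44.3 and 50.3 CPM (log2 change -0.70 ± 0.08 SE, edgeR adjusted p = 0.000173). CDC42EP3, the most abundant of the effectors by CPM, went from 328 and 314 to 263 and 257 CPM (-0.31 ± 0.06 SE, edgeR adjusted p = 0.0033). CDC42EP2 went from 9.75 and 11.3 to 6.30 and 7.88 CPM (-0.57 ± 0.17 SE, edgeR adjusted p = 0.0281). For all of these, and for CDC42, the shCDK5RAP3 libraries lay below both controls, beside 36.4% of all tested genes. With either shCDK5RAP3 library left out, 1 gene of the list was called lower. CDC42 itself had 179 and 173 CPM against 156 and 164 CPM (log2 change -0.14, edgeR adjusted p = 0.111), CDC42EP1 had a log2 change of 0.09 (edgeR adjusted p = 0.834), and CDC42EP5, with 5, 6, 2 and 0 counts, was not tested. Leaving out shCDK5RAP3 replicate 1 gave CDC42EP3 and CDC42EP2 an edgeR adjusted p of 0.0532 and 0.191, and leaving out replicate 2 of that group gave 0.0767 and 0.0662, which ended both calls; that of CDC42EP2 was lost also without shControl replicate 2 (0.111), with DESeq2 (0.0554) and with no filter (0.129).

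The machinery that works with septins in the cleavage furrow and midzone went both ways. The list had 15 genes, all tested, of which 5 rose, 4 fell and 6 missed the threshold, beside 19.7% of all tested genes higher and 21.8% lower; its median log2 change was 0.11. RACGAP1, a subunit of centralspindlin, fell furthest, from 152 and 150 CPM to 54.5 and 54.5 CPM (log2 change -1.47 ± 0.06 SE, edgeR adjusted p = 1.26e-06). Its partner in centralspindlin, the kinesin KIF23, fell by 0.46 on the log2 scale. Anillin (ANLN), which recruits septins to the furrow, went from 132 and 120 CPM to 67.8 and 68.3 CPM (log2 change -0.89 ± 0.07 SE, edgeR adjusted p = 2.58e-05). Upward, the GTPase RHOA, which drives ring assembly, went from 223 and 227 CPM to 356 and 371 CPM (log2 change 0.69 ± 0.06 SE, edgeR adjusted p = 3.72e-05), the formin DIAPH3 rose by 0.52 and the abscission factor CEP55 by 0.27. The call of CEP55 was lost without shCDK5RAP3 replicate 2 (edgeR adjusted p = 0.175) and with no filter (0.0935), and the number of rises was 3 without shCDK5RAP3 replicate 1, with DESeq2 or with library size alone, and 2 without shCDK5RAP3 replicate 2 or with no filter.

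A list of 19 other genes held septin partners and the 8 subunits of the exocyst, the complex that tethers vesicles to the plasma membrane. Of these 19 genes, 4 rose, 4 fell and 11 missed the threshold (median log2 change 0.02). Over all tested genes 19.7% were called higher, 21.8% lower and 41.5% either way, so the share called in the list was near the background. The exocyst subunits EXOC8 and EXOC5 rose by 0.46 and 0.43 on the log2 scale and EXOC6 fell by 0.51. HDAC6, a tubulin deacetylase, fell by 0.49, and SOCS7, an adaptor that binds septins, rose by 0.36. Without shCDK5RAP3 replicate 2 the calls of EXOC8 and EXOC6 were lost (edgeR adjusted p = 0.0709 and 0.0654), and that of SOCS7 was lost without shCDK5RAP3 replicate 1 (0.148) and with no filter (0.114). Without shCDK5RAP3 replicate 2 the list held 2 rises and 2 falls, and the rises also numbered 2 without shCDK5RAP3 replicate 1 or with no filter.

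The label of the cells was checked on 9 defining genes of noradrenergic neuroblastoma, all of which were expressed, with a summed level of 7550 to 8070 CPM in the shControl libraries and 4640 to 4780 CPM in the shCDK5RAP3 libraries; 8 of the 9 fell, beside 21.8% of all tested genes. Of 14 markers of leukocytes, endothelium, epithelium, fibroblasts and Schwann cells, 9 were tested and 5 of these fell, beside the same 21.8%; the 9 summed to 79.3 to 85.6 CPM against 47.3 to 48.3 CPM. Among the 14, the fibroblast markers COL1A1 and DCN were the highest by CPM. COL1A1 had 36.4 and 40.3 CPM under shControl and 33.5 and 29.7 CPM under shCDK5RAP3. DCN had 31.0 and 33.6 CPM against 9.14 and 10.3 CPM. The other fibroblast marker of the list, COL1A2, was scarce, at 0.657 and 0.516 CPM against 0.175 and 0.203 CPM. At the low end, PECAM1 held 0, 0, 1 and 0 counts, and the defining markers CD3E and SOX10 were at 0 in all libraries. The part of these shifts in the septin values was not tested.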

How the data were processed

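Gene counts of 4 RNA-seq libraries, as whole numbers not scaled between libraries, are held in 1 matrix that the authors deposited. Per the labels' protocols, total RNA was made into libraries with an Illumina TruSeq kit. The tools HISAT2 2.2.0 and StringTie and the build hg38 are listed, per the submitters' processing notes, with no role or order; for annotation release, strand setting and multi-mapped reads: not given in the sources used here. Each column name equals the description of 1 sample. Symbols came from a table of gene names, and positions, lengths and transcript sequences from GENCODE 29 (GRCh38); 7661 of 64252 rows, holding 1.82% to 1.90% of counts, had no match and stayed in library sizes and tests.

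The comparison used edgeR 4.0.16 in R 4.3.3 (TMM factors, default filter by group, quasi-likelihood test, no replicate block), with Benjamini-Hochberg adjustment over 18775 genes. A standard error is the size of the log2 change over the root of its F statistic. Alternatives used other factors, filters or thresholds, DESeq2 1.42.0, limma 3.58.1, a robust fit, a replicate block, summed rows and each library left out. The fit was tested on simulated counts with the same relative spread for all genes. It called 49 of 50 genes at a log2 change of -2, 46 of 50 at -1 and 48 of 50 at 1. At a log2 change of 0.5 it called 16 of 50, and smaller changes were not simulated. Of 18174 genes simulated with no change, 2 were called. A count of 0 allows 3 counts, or 0.0995 to 0.105 CPM.

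The septins and the gene lists (CDC42 effectors, cytokinesis, exocyst and other partners, markers) were chosen with earlier results of these data known. Named genes are all septins, CDK5RAP3, the CDC42 list, and the 3 largest rises and falls past the threshold in the other partner lists; genes sharing reads with a septin are named only as a check. Some genes of these lists are counted in them but not reported here by name.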

Additional observations from a re-analysis of the deposited data

How the results depend on the processing

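SEPTIN2 and SEPTIN8 kept their direction and their call in all 14 alternatives to the fit. Where a library was left out, the lone library of its group was assumed to vary like the other group. Over those 4 fits the genes called numbered 3752 to 7329 (1556 to 3516 higher, 2196 to 3813 lower), septins called higher 0 to 1 and lower 2 to 5, the CDC42 list 1 to 3 lower, cytokinesis genes 2 to 5 higher, and other partners 2 to 4 higher and 2 to 5 lower. Over the same fits the log2 change of SEPTIN3 ran from -0.10 to 0.07, SEPTIN4 from -1.51 to -1.07, SEPTIN6 from -0.29 to -0.24, SEPTIN7 from -0.21 to -0.14, SEPTIN9 from -0.24 to -0.17, SEPTIN10 from 0.22 to 0.27 and SEPTIN11 from -0.03 to 0.08. The sign of SEPTIN3 turned without shControl replicate 1 (0.07), without shCDK5RAP3 replicate 2 (0.04) and with upper-quartile factors (0.02), that of SEPTIN11 without shControl replicate 2 (-0.03) and that of CDC42EP1 without shCDK5RAP3 replicate 1 (-0.17, in a range up to 0.31); none passed the test.

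With no filter 4488 genes were called (1966 higher, 2522 lower), cytokinesis and other partner rises numbered 2 each, and SEPTIN7 (-0.18) and SEPTIN9 (-0.21) did not pass. At an adjusted p of 0.01, 2421 genes were higher, septins called higher numbered 0, and cytokinesis and other partner rises 2 each. Cytokinesis rises numbered 3 by library size alone and with DESeq2. SEPTIN7 did not pass with relative log expression factors (-0.17), upper-quartile factors (-0.14) or DESeq2 (-0.18). The causes of these changes were not tested.

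With no division by length the SEPTIN2 group held 27.7% and 12.0% of the family (shControl, shCDK5RAP3), the SEPTIN6 group 32.3% and 39.6%, the SEPTIN3 group 28.4% and 34.2%, and SEPTIN7 11.7% in shControl. With pseudogene counts added the SEPTIN2 group held 32.7% and 16.3% and SEPTIN7 12.5% and 16.1%, with the SEPTIN6 group at 35.8% and the SEPTIN3 group at 31.7% in shCDK5RAP3. With merged exon lengths, chosen after seeing the data, these were 32.9% and 16.3% for the SEPTIN2 group, 38.6% and 48.7% for the SEPTIN6 group, 8.94% and 11.0% for SEPTIN7, and 19.6% and 24.0% for the SEPTIN3 group.

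With the replicate number as a block 9148 genes were called (4430 higher, 4718 lower) and no septin call changed. CDC42 passed the test (log2 change -0.14, edgeR adjusted p = 0.0322), so the CDC42 list held 4 genes called lower; cytokinesis rises numbered 6, and other partners held 5 rises and 5 falls. Nothing in the labels says that same-numbered libraries share a culture or day. The deviations of same-numbered libraries from their group means correlated at 0.147 over 13893 genes. With 2 libraries per group the deviations within a group mirror each other, so both pairs give the same value by construction. Depth limits SEPTIN4, with 25 to 73 counts per library.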
